A study of Arabidopsis thaliana with 64 samples.

Results

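The genes described here were 10 Arabidopsis thaliana genes of sulfate uptake, sulfate distribution and sulfate reduction, out of 26795 genes matched on the array. They were taken by locus identifier, from a list chosen with earlier results of these data known, and followed across all 64 arrays. The transporter genes were SULTR1;1 (AT4G08620), SULTR1;2 (AT1G78000), SULTR1;3 (AT1G22150), SULTR2;1 (AT5G10180) and SULTR3;4 (AT3G15990). The reductase genes were APR1 (AT4G04610), APR2 (AT1G62180) and APR3 (AT4G21990), and the sulfur-deficiency genes were SDI1 (AT5G48850) and LSU1 (AT3G49580). All 10 genes were measured, by 12 probes in all, and each gene was read from its brightest probe.

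Roots take up sulfate through high-affinity transporters of SULTR group 1, and vascular transporters of SULTR groups 1, 2 and 3 distribute it through the plant. In plastids sulfate is activated to adenosine 5'-phosphosulfate, which APS reductase (APR) reduces to sulfite before cysteine is made, and SDI1 and LSU1 are classical marker genes of sulfur deficiency. Several transporter genes of this family are also known to respond to phosphate (Pi) supply in Arabidopsis through the Pi starvation regulator PHR1, and HY5 is known to act on APR genes in light-grown seedlings.

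The study compared Pi-deficient and Pi-sufficient plants grown on MS-based agar medium, and asked how the transcript response to Pi deficiency differed between WT, lines altered in HY5 or BBX32 and plants under light of different colours. Roots and shoots were hybridised separately to 1-colour Agilent arrays, and the white-light shoots were labelled as leaf. In the first set, hy5-215 plants, which carry a chemically induced loss-of-function allele of the light-signalling transcription factor HY5, had wild type (WT) Col-0 samples labelled for them. In the second set, plants labelled 35S::BBX32-SRDX::NOSter (hereafter 35S:BBX32-SRDX) had other WT samples, labelled for that line. That transgene expresses BBX32 fused to the SRDX repression domain from the constitutive 35S promoter, so its expression is not limited to the cells that normally express BBX32, and how many transgenic lines were sampled is not given in the sources used here. Plants of both sets were 4 weeks old under white light, with 3 arrays for each of the groups. In the third set, WT Col-0 plants were 3 weeks old and grown under blue (B) or red (R) light, with 2 arrays for each of the groups. The labels give 23 °C and 16 h of light per day for all plants, whereas the methods give a slightly lower temperature and continuous light for B and R plants. The ages are those of the labels, and the paper's RNA measurements by PCR used younger seedlings. There were 24 groups, and no group other than hy5-215 and 35S:BBX32-SRDX carried a mutation or transgene.

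Levels are given as log2 signal relative to the 75th percentile of the array, which is 0, and are compared within a gene and not between genes, since each probe has its own brightness. Between 68.5% and 83.7% of probes were well above background on the white-light arrays and between 45% and 66.7% on the dimmer light-quality arrays. BBX32 was between 8.21 and 10.6 log2 units higher in 35S:BBX32-SRDX than in WT, and the Pi-starvation transcript IPS1 was higher under Pi deficiency in all 12 comparisons. It rose by between 5.72 and 7.39 log2 units in the 3 comparisons with all Pi-sufficient arrays well above background and at least 31.9-fold to 144-fold in the 4 with none. HY5 was lower in hy5-215 roots (by limma, log2 fold change -1.91 and -2.05, adjusted p = 1.55e-05 and 9.48e-06) but not in the shoots labelled hy5-215 (-0.03 and -0.03, adjusted p = 1.0 for both), so the HY5 transcript did not separate those shoots from WT. All 6 leaf markers were higher on every shoot array than on every root array, and all 5 root markers were higher on every root array. The 4 arrays of the hy5-215 set that carried replicate 1 shoots (2 hy5-215, 2 WT, all hybridised on 1 slide) stood apart for SDI1, LSU1, APR1 and APR3, and results that rest on them are given with and without that slide.

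Under Pi deficiency the signal of the phloem transporter gene SULTR1;3 was higher in 12 of 12 comparisons and that of SULTR3;4 in 8 of 12, including 6 of 6 in shoots. In B light shoots the SULTR1;3 call rests on signal near background, with only 1 Pi-deficient and no Pi-sufficient array well above it. SULTR2;1 rose in 5 of 12, APR1 in 4 of 12, APR3 in 2 of 12, and APR2 and SULTR1;2 in 1 of 12 each, whereas neither SDI1 nor LSU1 passed the test in any. SULTR1;1, which was tested in roots only, fell in 1 of 6. A gene passed where limma's Benjamini-Hochberg adjusted p over all tested genes was under 0.05. The 4 arrays of a slide deviated together, and with slides fitted as blocks APR1 rose in 10 of 12 comparisons, SULTR3;4 in 9, SULTR2;1 in 6, APR2 in 5, APR3 in 4, LSU1 in 3 and SDI1 in 0. In that fit SULTR1;2 rose in 2 of 12 and fell in 1, and SULTR1;1 rose in 1 of 6 and fell in 2. In bulk tissue, fewer cells of a type and less RNA per cell cannot be told apart.

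**Figure D1:**
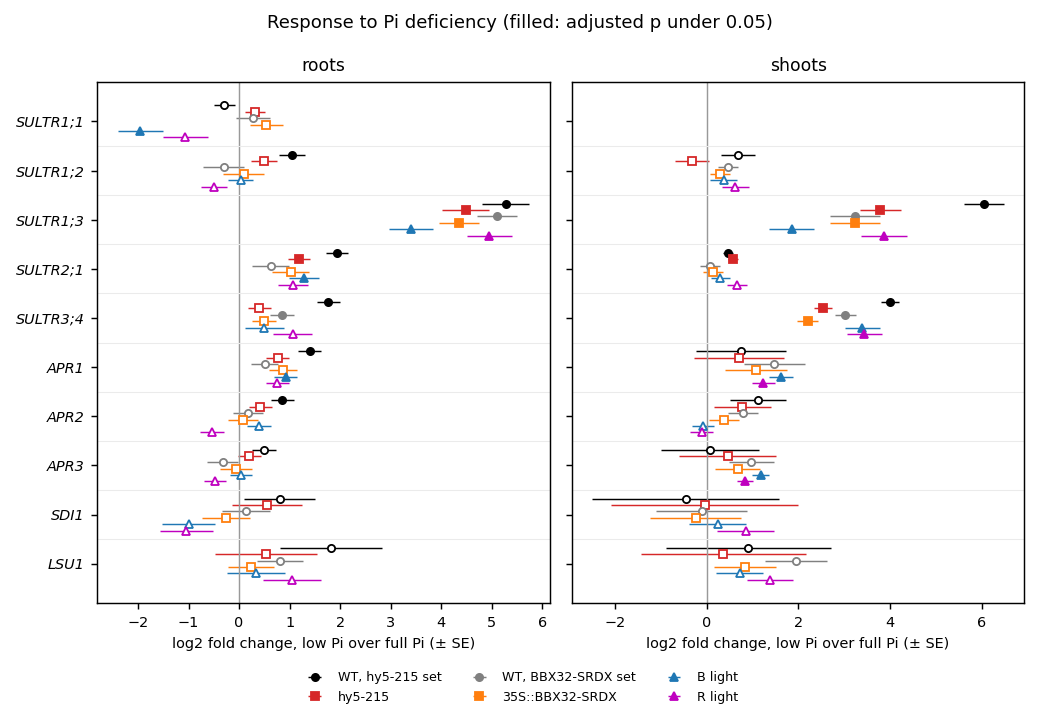
The log2 fold change of each gene under Pi deficiency (Pi-deficient over Pi-sufficient, with limma's standard error) is plotted for roots and shoots of each line and light quality, and filled symbols mark an adjusted p under 0.05. SULTR1;3 lies between 3.40 and 5.28 in roots and between 1.85 and 6.04 in shoots, where the Pi-sufficient level was at background in the light-quality set, and SULTR3;4 lies between 2.20 and 4.00 in shoots and between 0.40 and 1.76 in roots.

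In WT roots of the hy5-215 set 6 of the 10 genes rose, where 27% of all tested genes passed the test and 12.9% passed and were higher, and the median log2 fold change of the 10 was 1.23 against 0.01 for all genes. In WT roots of the 35S:BBX32-SRDX set 2 of 10 rose (15% of all genes passed, 6.44% higher), with a median of 0.39 against 0.02. In WT shoots 3 of the 9 tested genes rose in the hy5-215 set (18% of all genes, 9.37% higher) and 2 of 9 in the 35S:BBX32-SRDX set (21.8%, 10.8% higher), with medians of 0.75 and 0.97 against -0.04 and -0.09. No gene fell in these comparisons. With slides fitted as blocks, 9 of 10 and 4 of 10 genes passed in WT roots (43.5% and 30.8% of all genes), with 1 of each lower (SULTR1;1 and SULTR1;2), and 7 of 9 and 6 of 9 in WT shoots (46.9% and 44.9% of all genes), so the share of genes passing rose in the whole transcriptome as well. Without the replicate 1 slide, 3 of 9 genes passed in WT shoots of the hy5-215 set (13.4% of all genes).

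SULTR1;2, the main transporter of sulfate uptake into roots, was higher in roots than in shoots, and was well above background on all 24 white-light arrays of each organ. Over the 24 white-light root arrays its level ran from 1.86 to 4.34 with a median of 3.30, and over the 24 shoot arrays from -2.87 to -1.06 with a median of -1.90, so that no root array overlapped a shoot array. In WT it was higher in roots than in shoots by between 3.98 and 4.87 log2 units in the 4 comparisons, with adjusted p between 2.53e-10 and 4.63e-09. Both organs differed for most of the transcriptome, and 71.9% (Pi-deficient) and 69.3% (Pi-sufficient) of all genes passed this comparison in the hy5-215 set, and 74.2% and 70.1% in the 35S:BBX32-SRDX set.

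In WT roots of the hy5-215 set, the SULTR1;2 level was 2.99, 2.21 and 1.86 on the Pi-sufficient arrays and 3.48, 3.19 and 3.55 on the Pi-deficient arrays. All Pi-deficient arrays were above all Pi-sufficient ones, by 1.05 ± 0.26 (log2 fold change ± SE, 2.07-fold, adjusted p = 0.0128). In hy5-215 roots of the same set it was 3.66, 3.61 and 3.53 with sufficient Pi and 4.34, 3.77 and 4.15 under deficiency. Every hy5-215 array was thus above every WT array of the same Pi supply, by 1.24 ± 0.26 with sufficient Pi (2.37-fold, adjusted p = 0.00937). Under deficiency the difference was 0.68 ± 0.26 (adjusted p = 0.0966, and 0.0437 in the fit blocked by slide).

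In the 35S:BBX32-SRDX set the WT roots did not show that rise. Their SULTR1;2 level was 3.28, 3.29 and 2.07 with sufficient Pi and 2.93, 2.79 and 2 under deficiency, lower under deficiency within each slide (-0.30, adjusted p = 0.696, and 0.0453 with the block). The 35S:BBX32-SRDX roots read 3.36, 3.31 and 2.52 with sufficient Pi and 3.55, 3.33 and 2.60 under deficiency. Replicate 3 was the lowest in all 4 of these groups, and under deficiency the transgenic roots were higher than WT by 0.58 (adjusted p = 0.484, and 0.00357 with the block). In WT shoots of the hy5-215 set SULTR1;2 differed by 0.68 under Pi deficiency (adjusted p = 0.239, and 0.0391 with the block, but 0.343 without the replicate 1 slide).

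SULTR1;1, the second high-affinity uptake transporter of roots, was close to or below background in shoots: 21 of the 24 white-light shoot arrays were not well above background, and all 24 root arrays were. Against the background limit, WT roots exceeded WT shoots at least 24.1-fold and 37.6-fold in the 35S:BBX32-SRDX set (sufficient and deficient Pi) and at least 19.2-fold in the hy5-215 set with sufficient Pi (adjusted p = 3.43e-07, 2.52e-07 and 4.65e-05). These bounds set the mean of the bright group against the lowest signal that counted as well above background on the dim arrays.

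In roots of the 35S:BBX32-SRDX set, SULTR1;1 read -3.22, -2.12 and -2.85 in WT with sufficient Pi and -2.53, -2.36 and -2.47 under deficiency. In 35S:BBX32-SRDX it read -1.51, -1.17 and -2.16 with sufficient Pi and -1.41, -0.54 and -1.29 under deficiency. The transgenic arrays lay above the WT arrays under deficiency, with a difference of 1.38 ± 0.33 (2.59-fold, adjusted p = 0.0247), and overlapped them in part with sufficient Pi, with a difference of 1.11 (adjusted p = 0.163, and 0.0192 in the fit blocked by slide). The call under deficiency was lost when replicate 2 of the Pi-deficient 35S:BBX32-SRDX roots or any 1 of the Pi-deficient WT root arrays was left out (adjusted p between 0.0673 and 0.0809).

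The hy5-215 roots also had more SULTR1;1 under Pi deficiency. WT roots read -2.48, -2.09 and -2.64 with sufficient Pi and -2.70, -2.45 and -2.93 under deficiency, and hy5-215 roots read -2.24, -2.09 and -2.56 with sufficient Pi and -1.96, -1.72 and -2.28 under deficiency. Under deficiency every hy5-215 array lay above every WT array, by 0.71 ± 0.20 (1.63-fold, adjusted p = 0.0334). The call was lost without replicate 1 or 2 of the Pi-deficient hy5-215 roots or replicate 1 or 3 of the Pi-deficient WT roots (adjusted p between 0.0804 and 0.118) and with normexp (0.0698). The Pi response itself ran in opposite directions within the slides, -0.29 in WT and 0.31 in hy5-215, neither of which passed the test (adjusted p = 0.323 and 0.38, and 0.00326 and 0.00486 with the block).

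Under B light, SULTR1;1 in roots fell from -3.15 and -3.43 with sufficient Pi to -4.78 and -5.70 under deficiency, and neither of the Pi-deficient arrays was well above background. The decrease was at least 1.28-fold (adjusted p = 0.0361) and was not called without replicate 2 of the Pi-deficient B roots or any 1 of the 4 Pi-sufficient root arrays (adjusted p between 0.0658 and 0.122), nor with quantile normalisation, normexp or no filter (adjusted p = 0.0583, 0.397 and 0.133). Under R light the levels were -3.37 and -3.77 with sufficient Pi and -5.29, not well above background, and -3.98 under deficiency (-1.07, adjusted p = 0.388).

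**Figure D2:**
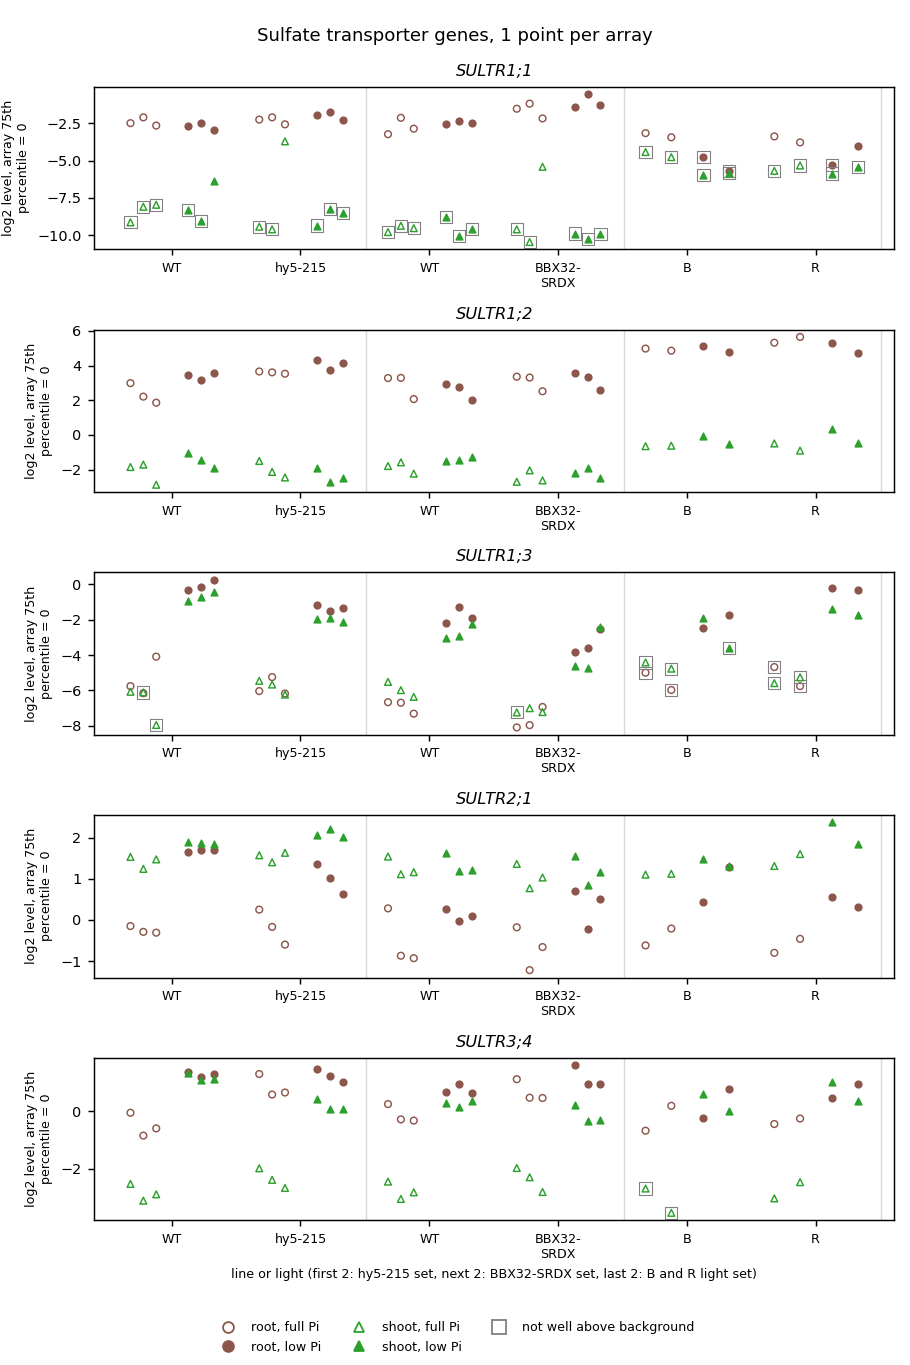
The level of the 5 transporter genes on each array (log2 signal, with the array's 75th percentile at 0) is plotted by line or light quality in roots and shoots, with open symbols for Pi-sufficient (full Pi) and filled symbols for Pi-deficient (low Pi) plants and grey squares where a gene was not well above background. SULTR1;2 runs from 1.86 to 4.34 in white-light roots and from -2.87 to -1.06 in white-light shoots, and SULTR1;3 separates the Pi supplies in every organ and line.

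SULTR1;3, a high-affinity transporter of the phloem, had the largest Pi response of the 10 genes in each of the 4 white-light root comparisons. In WT roots of the hy5-215 set it read -5.76, -6.16 and -4.09 with sufficient Pi and -0.31, -0.13 and 0.27 under deficiency. That rise was 38.8-fold (5.28 ± 0.47, adjusted p = 5.42e-05). In WT shoots of the same set it read -6.08, -6.12 and -7.96 with sufficient Pi, with only the first well above background, and -0.92, -0.69 and -0.42 under deficiency. The shoot rise was 66.0-fold (6.04 ± 0.44, adjusted p = 4.16e-05) and, without the replicate 1 slide, at least 62.7-fold against Pi-sufficient arrays not well above background (adjusted p = 0.00324).

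The second WT also showed the SULTR1;3 rise, with lower Pi-deficient levels. Its roots read -6.67, -6.70 and -7.32 with sufficient Pi and -2.16, -1.30 and -1.90 under deficiency, a 34.4-fold rise (5.10 ± 0.40, adjusted p = 5.53e-05). Its shoots read -5.52, -5.99 and -6.37 with sufficient Pi and -3.06, -2.90 and -2.23 under deficiency, a 9.40-fold rise (3.23 ± 0.54, adjusted p = 0.00364). The WT samples of both sets were labelled for their own line and hybridised on different slides. The set cannot be told apart from other differences between them. With normexp background correction the rise in these shoots was 2.11 and was not called (adjusted p = 0.0659).

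SULTR1;3 under Pi deficiency was also compared between each line and its WT. In hy5-215 roots it read -6.04, -5.25 and -6.18 with sufficient Pi and -1.17, -1.49 and -1.35 under deficiency, and all Pi-deficient arrays lay below those of WT (-1.28, adjusted p = 0.0894, and 0.0764 with the block). In the shoots labelled hy5-215 it read -5.46, -5.67 and -6.24 with sufficient Pi and -1.98, -1.89 and -2.12 under deficiency, again all below WT (-1.32, adjusted p = 0.46). Neither hy5-215 difference passed the test.

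In 35S:BBX32-SRDX roots SULTR1;3 was lower than in WT under Pi deficiency. They read -8.10, -7.97 and -6.94 with sufficient Pi and -3.82, -3.59 and -2.55 under deficiency, and every Pi-deficient array lay below every Pi-deficient WT array. The difference was -1.53 ± 0.40 (2.89-fold lower, adjusted p = 0.0363). The call was lost when replicate 1 or 2 of the Pi-deficient 35S:BBX32-SRDX roots, replicate 2 of the Pi-sufficient WT roots or any 1 of the Pi-deficient WT roots was left out (adjusted p between 0.052 and 0.138) and without the filter on dim probes (0.0506). In 35S:BBX32-SRDX shoots it read -7.25, not well above background, -7.01 and -7.23 with sufficient Pi and -4.62, -4.76 and -2.39 under deficiency, with replicate 3 above the others. That shoot group overlapped Pi-deficient WT (-1.19, adjusted p = 0.456).

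Within the lines SULTR1;3 rose under Pi deficiency 22.5-fold in hy5-215 roots (adjusted p = 0.000462), 20.4-fold in 35S:BBX32-SRDX roots (0.000359), 13.8-fold in shoots labelled hy5-215 (0.00261) and 9.44-fold in 35S:BBX32-SRDX shoots (0.00864), all by limma. The last of these was not called with normexp background correction (adjusted p = 0.179). These contrasts use the same arrays as the comparisons with WT.

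Under B and R light SULTR1;3 in roots was not well above background on any of the 4 Pi-sufficient arrays. Under deficiency it read -2.46 and -1.72 under B light and -0.21 and -0.33 under R light, at least 2.93-fold and 14.6-fold higher (adjusted p = 0.00387 and 0.000748). Both R arrays lay above both B arrays under deficiency, by 1.82 ± 0.44 (3.54-fold, adjusted p = 0.0475), and this was the single R-against-B difference called in the 10 genes. It was not called with the authors' normalised values (adjusted p = 0.247) nor without the filter on dim probes (adjusted p = 0.162). It was also lost when any 1 of the 4 Pi-deficient root arrays was left out (adjusted p between 0.053 and 0.245). With normexp background correction the B root rise was 0.21 (adjusted p = 0.613). That setting added an offset of 50 to every signal, against a 75th percentile between 79 and 267 on these arrays, which shrinks fold changes there.

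In light-set shoots SULTR1;3 was not well above background on the 4 Pi-sufficient arrays nor on replicate 2 of the Pi-deficient B shoots. It read -1.91 and -3.58 under deficiency in B light (adjusted p = 0.026, with no fold given because 1 of 4 arrays was above background) and -1.37 and -1.75 in R light (at least 3.40-fold higher, adjusted p = 0.00885). Against the background limit the B light bound was 0.815-fold, so the levels do not establish a rise there. The B call was lost without replicate 1 of the Pi-deficient B shoots or either Pi-sufficient B shoot array (adjusted p between 0.0586 and 0.106) and with normexp background correction (adjusted p = 0.718). The R call was lost without replicate 1 of the Pi-deficient R shoots or either Pi-sufficient R shoot array (adjusted p between 0.0501 and 0.0584).

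SULTR2;1, a low-affinity transporter of vascular tissue, rose with Pi deficiency in roots of the hy5-215 set. WT roots read -0.15, -0.29 and -0.31 with sufficient Pi and 1.65, 1.69 and 1.70 under deficiency, and hy5-215 roots 0.25, -0.17 and -0.60 with sufficient Pi and 1.36, 1.03 and 0.64 under deficiency. The rise was 3.82-fold in WT (1.93 ± 0.21, adjusted p = 0.000172) and 2.27-fold in hy5-215 (1.18 ± 0.21, adjusted p = 0.00641). Every Pi-deficient hy5-215 array lay below every Pi-deficient WT array, by -0.67 (adjusted p = 0.0546, and 0.0154 in the fit blocked by slide).

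The WT roots of the 35S:BBX32-SRDX set read 0.28, -0.87 and -0.93 for SULTR2;1 with sufficient Pi and 0.27, -0.02 and 0.09 under deficiency, and their groups overlapped. Roots of 35S:BBX32-SRDX read -0.18, -1.22 and -0.66 with sufficient Pi and 0.71, -0.23 and 0.52 under deficiency (1.02, adjusted p = 0.152, and 0.013 with the block). Under B light SULTR2;1 in roots rose from -0.62 and -0.21 to 0.44 and 1.29 (2.43-fold, adjusted p = 0.0396). That call was kept only without replicate 1 of the Pi-deficient B roots and was lost on leaving out each of the other 7 arrays of the fit (adjusted p between 0.0669 and 0.139), as it was with the authors' values (adjusted p = 1.0), without the filter (0.139) and with normexp (0.0852).

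SULTR2;1 was higher in WT shoots than in WT roots in 3 of 4 comparisons. The organ difference (root minus shoot) was -1.78 and -1.66 with sufficient Pi in the 35S:BBX32-SRDX and hy5-215 sets (adjusted p = 6.2e-05 and 7.81e-08), and under deficiency it was -1.23 and -0.19 (adjusted p = 0.0019 and 0.335). In WT shoots of the hy5-215 set it read 1.53, 1.24 and 1.47 with sufficient Pi and 1.89, 1.88 and 1.85 under deficiency, a small rise of 1.37-fold (0.46 ± 0.11, adjusted p = 0.0186). The shoots labelled hy5-215 showed a 1.48-fold rise (adjusted p = 0.0307). Neither call was made without the replicate 1 slide (adjusted p = 0.0704 and 0.112). Single arrays also decided them, namely Pi-sufficient replicate 2 and Pi-deficient replicates 1 and 2 for WT (adjusted p between 0.0505 and 0.079), and each of the 6 hy5-215 shoot arrays and Pi-deficient WT replicate 2 for hy5-215 (adjusted p between 0.0528 and 0.134). The latter was also lost without the filter on dim probes (0.0542).

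SULTR3;4, a transporter known in Arabidopsis to take part in the allocation of phosphorus to young leaves, rose in the shoots of every line and light quality. In WT shoots it read -2.52, -3.10 and -2.88 with sufficient Pi and 1.30, 1.09 and 1.11 under deficiency in the hy5-215 set, a 16.0-fold rise (4.00 ± 0.20, adjusted p = 8.69e-06). In the 35S:BBX32-SRDX set WT shoots read -2.44, -3.04 and -2.81 with sufficient Pi and 0.29, 0.15 and 0.33 under deficiency, an 8.12-fold rise (3.02 ± 0.23, adjusted p = 3.52e-05). Pi-sufficient and Pi-deficient shoots were separated by more than the spread within any group, and no call was lost on leaving out an array.

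The shoots labelled hy5-215 read -1.98, -2.38 and -2.66 for SULTR3;4 with sufficient Pi and 0.42, 0.08 and 0.08 under deficiency, a 5.80-fold rise (adjusted p = 0.000502). The 35S:BBX32-SRDX shoots read -1.97, -2.29 and -2.80 and then 0.20, -0.34 and -0.31, a 4.60-fold rise (adjusted p = 0.000599). All Pi-deficient shoots labelled hy5-215 lay below the Pi-deficient WT shoots (-0.97, adjusted p = 0.126, and 0.0105 in the fit blocked by slide). The Pi response was 1.46 log2 units smaller in hy5-215 than in WT, which did not pass the test (-1.46, adjusted p = 0.57, and 0.0557 with the block). In light-set shoots SULTR3;4 rose under B light from -2.68 and -3.52, both not well above background, to 0.60 and -0.01 (at least 6.69-fold, adjusted p = 0.00135), and under R light from -3.02 and -2.46 to 1.02 and 0.36 (10.8-fold, adjusted p = 0.00565).

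In roots SULTR3;4 responded less. WT roots of the hy5-215 set read -0.06, -0.85 and -0.60 with sufficient Pi and 1.34, 1.16 and 1.28 under deficiency (3.39-fold, 1.76 ± 0.23, adjusted p = 0.000445). Roots of hy5-215 read 1.28, 0.57 and 0.64 with sufficient Pi and 1.46, 1.22 and 1.02 under deficiency. With sufficient Pi the hy5-215 roots lay above all WT roots, by 1.33 ± 0.23 (2.52-fold, adjusted p = 0.00373), and under deficiency the groups overlapped. The Pi response was thus 1.76 in WT and 0.40 in hy5-215, and the difference between the responses was -1.36 (adjusted p = 0.13, and 0.0183 with the block).

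WT roots of the 35S:BBX32-SRDX set read 0.24, -0.29 and -0.33 for SULTR3;4 with sufficient Pi and 0.66, 0.92 and 0.62 under deficiency (1.81-fold, adjusted p = 0.0377). The call was lost without replicate 2 or 3 of the Pi-sufficient or any 1 of the Pi-deficient WT roots (adjusted p between 0.0645 and 0.136) and without the filter (0.0523). Roots of 35S:BBX32-SRDX read 1.1, 0.46 and 0.45 with sufficient Pi, above all WT arrays, by 0.80 (adjusted p = 0.167, and 0.0245 with the block), and 1.59, 0.95 and 0.95 under deficiency. In R light roots SULTR3;4 rose under deficiency by 0.91 and 1.22 within the slides, which was called only with the block. With sufficient Pi, WT roots exceeded WT shoots by 2.64 and 2.33 log2 units in the 35S:BBX32-SRDX and hy5-215 sets (adjusted p = 1.37e-08 and 2.56e-08). Under deficiency the organs differed by 0.47 and 0.09 (limma, adjusted p = 0.0898 and 0.724). For the first, limma with the replicate number as a block, which joins a root and a shoot slide, gave an adjusted p of 0.015.

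**Figure D3:**
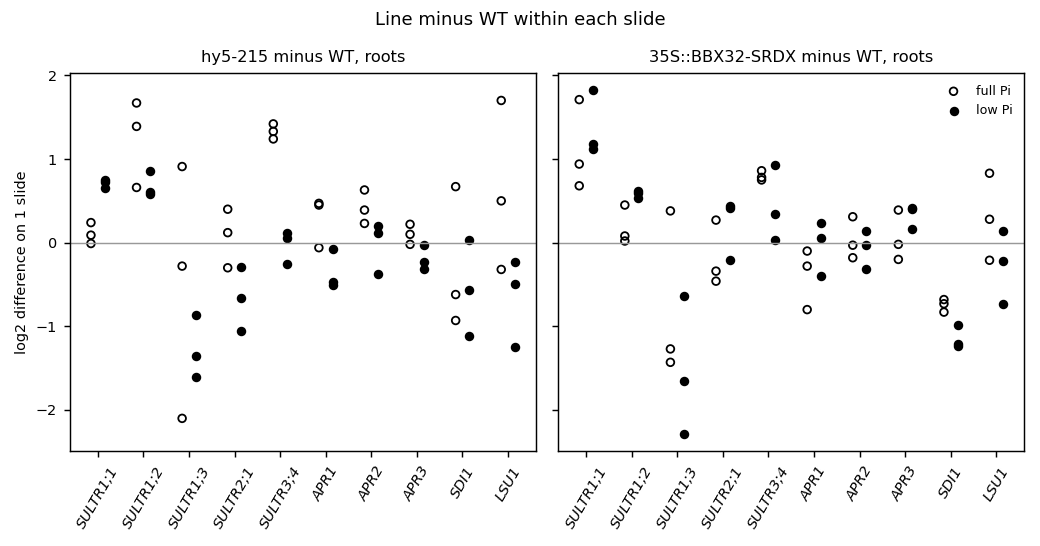
The difference between each line and WT in roots (line minus WT, log2) is plotted for each slide with open symbols for Pi-sufficient and filled symbols for Pi-deficient plants. For hy5-215 with sufficient Pi, SULTR3;4 lies between 1.24 and 1.42 and SULTR1;2 between 0.66 and 1.67 on the 3 slides.

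APR1, an APS reductase, rose with Pi deficiency in WT roots of the hy5-215 set from 2.99, 2.05 and 2.22 to 3.76, 3.72 and 3.99. The groups did not overlap, and the rise was 2.64-fold (1.40 ± 0.23, adjusted p = 0.00159). In hy5-215 roots it went from 2.93, 2.51 and 2.68 to 3.68, 3.22 and 3.52, a difference of 0.76 (adjusted p = 0.0564, and 0.0139 in the fit blocked by slide). In WT roots of the 35S:BBX32-SRDX set the levels were 2.97, 2.38 and 1.88 with sufficient Pi and 3.02, 3.13 and 2.59 under deficiency (0.51, adjusted p = 0.267, and 0.0374 with the block). Roots of 35S:BBX32-SRDX read 2.17, 2.10 and 1.77 and then 3.25, 2.73 and 2.65 (0.86, adjusted p = 0.0995, and 0.0065 with the block).

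APR1 in white-light shoots varied more between slides than between Pi supplies. WT shoots of the hy5-215 set read 3.45, 0.66 and 0.79 with sufficient Pi and 3.75, 2 and 1.38 under deficiency, with replicate 1 far above the others, and the Pi difference was higher on each of the 3 slides (0.75, adjusted p = 0.647, and 0.015 with the block, but 0.07 without the replicate 1 slide). WT shoots of the 35S:BBX32-SRDX set read 1.66, 2.40 and 0.25 with sufficient Pi and 3.75, 3.01 and 1.97 under deficiency (1.47, adjusted p = 0.138, and 0.0113 with the block). The shoots labelled hy5-215 read 2.68, 0.67 and 0.57 and then 3.47, 1.55 and 0.97 (0.69, adjusted p = 0.788, and 0.0356 with the block, but 0.288 without the replicate 1 slide).

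The clearest APR1 and APR3 rises in shoots were under B light. APR1 went from 0.30 and 0.44 to 1.97 and 2.01 (3.07-fold, adjusted p = 0.00404) and APR3 from -0.32 and -0.21 to 0.90 and 0.93 (2.26-fold, adjusted p = 0.00385). Under R light APR1 went from 0.82 and 0.21 to 2.01 and 1.5 (2.35-fold, adjusted p = 0.04) and APR3 from -0.26 and -0.47 to 0.67 and 0.26 (1.78-fold, adjusted p = 0.0484). None of these groups overlapped. Both R light calls were lost without any 1 of the 4 B shoot arrays or without Pi-deficient R replicate 1 or Pi-sufficient R replicate 2, and that of APR3 also without Pi-sufficient R replicate 1 (adjusted p between 0.0677 and 0.203 for APR1 and between 0.0789 and 0.233 for APR3). With the authors' normalised values neither R light call was made (adjusted p = 0.0803 for APR1 and 0.0964 for APR3), nor without the filter on dim probes (0.101 and 0.125), and that of APR3 was also lost with quantile normalisation, normexp and the mean of probes (adjusted p = 0.0536, 0.0653 and 0.0509). APR1 in B light roots went from 1.27 and 1.68 to 2.18 and 2.61 (1.89-fold, adjusted p = 0.0446), a call lost when any 1 of the 8 arrays of the fit was left out (adjusted p between 0.0528 and 0.168), with the authors' values (adjusted p = 1.0), without the filter (0.146) and with normexp (0.0758). APR1 and APR3 are closely related in sequence, and how far their probes share signal was not tested.

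APR2, the major APS reductase isoform of Arabidopsis leaves, rose 1.81-fold in WT roots of the hy5-215 set, from -0.17, -0.58 and -0.27 to 0.50, 0.36 and 0.69 (0.85 ± 0.23, adjusted p = 0.0199). The call was lost without Pi-sufficient WT replicate 2 or Pi-deficient WT replicate 3 (adjusted p = 0.0741 and 0.0713). In the fit blocked by slide APR2 also rose in hy5-215 roots (by between 0.17 and 0.56 within the slides). With the block it rose in shoots labelled hy5-215 too (by between 0.54 and 0.95, but adjusted p = 0.264 without the replicate 1 slide). The main fit called neither. In WT shoots it went from 1.74, 0.13 and -0.34 to 2.10, 1.61 and 1.16 in the hy5-215 set (1.11, adjusted p = 0.244, 0.0039 in the fit blocked by slide and 0.0289 without the replicate 1 slide). In WT shoots of the 35S:BBX32-SRDX set it went from 1.15, 1.16 and 0.11 to 2.08, 1.43 and 1.27 (0.79, adjusted p = 0.101, and 0.0335 with the block). APR2 was higher in WT shoots than in WT roots of that set (-1.46, adjusted p = 0.000495 under deficiency, and -0.85, adjusted p = 0.0253 with sufficient Pi). The latter call was lost without replicate 1 or 2 of the shoots or replicate 3 of the roots (adjusted p between 0.106 and 0.138). Under light of a single colour APR2 in Pi-deficient roots read 2.48 and 2.36 under B and 1.82 and 1.17 under R light (-0.93, adjusted p = 0.0547, and 0.0373 with the block).

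APR3 in white-light roots stayed within -0.16 to 1.09, and its Pi difference passed only in the fit blocked by slide in WT roots of the hy5-215 set (0.49, adjusted p = 0.145, and 0.0017 with the block). In WT shoots of the 35S:BBX32-SRDX set it went from 0.55, 1.32 and -0.48 to 2.04, 1.54 and 0.71, higher on each slide (0.97, adjusted p = 0.176, and 0.032 with the block). In those plants APR3 was higher in shoots than in roots under deficiency (-1.09, adjusted p = 0.0296), and the groups overlapped. That call was lost without replicate 1 or 2 of the shoots or replicate 2 or 3 of the roots (adjusted p between 0.0619 and 0.144).

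**Figure D4:**
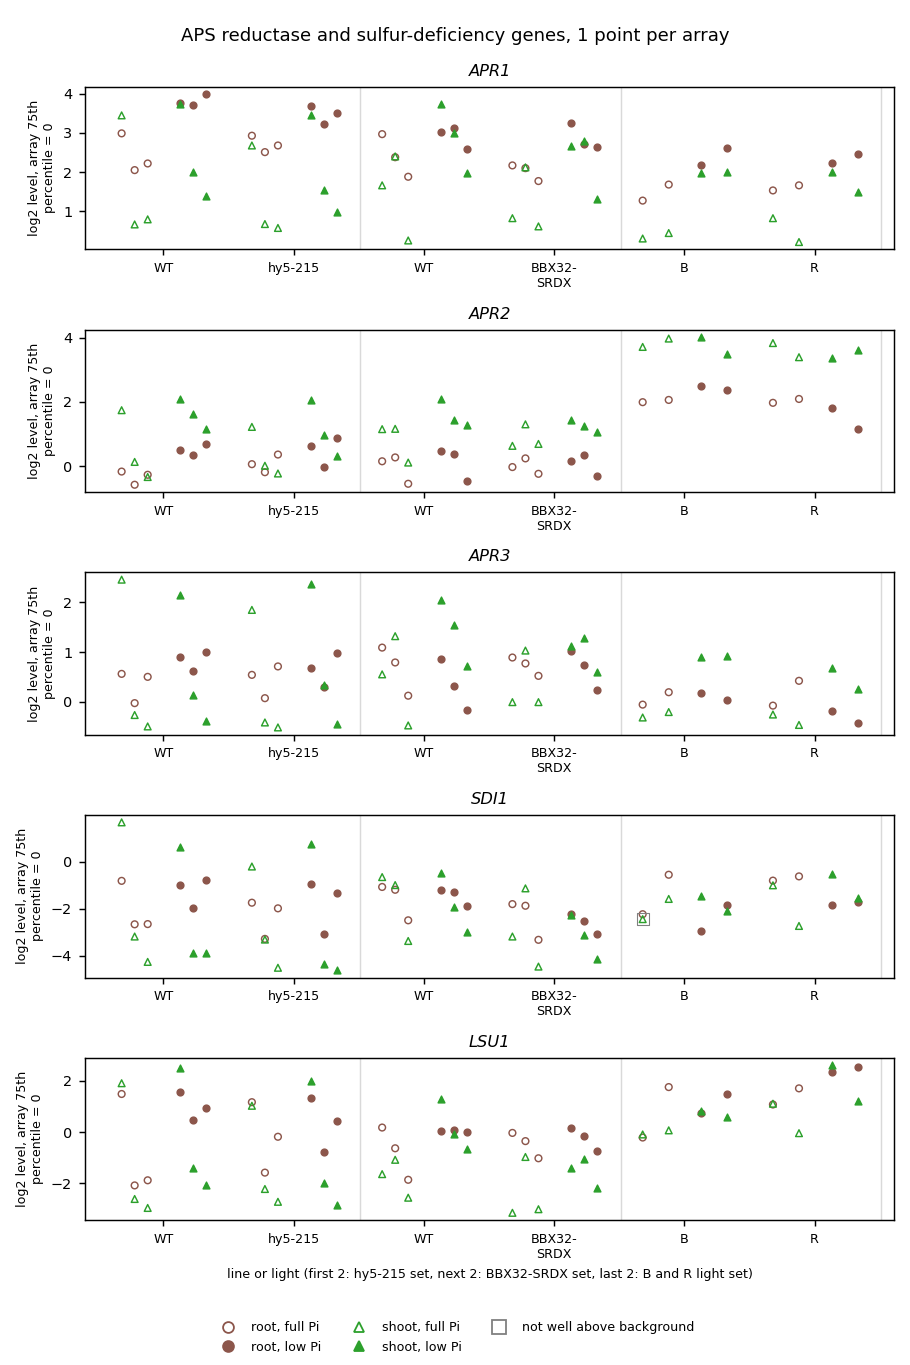
The level of APR1, APR2, APR3, SDI1 and LSU1 on each array (log2 signal, with the array's 75th percentile at 0) is plotted by line or light quality in roots and shoots, with open symbols for Pi-sufficient and filled symbols for Pi-deficient plants and grey squares where a gene was not well above background. Over the shoots of the hy5-215 set, taken over all its groups, SDI1 runs from -4.61 to 1.68.

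SDI1, a protein known to restrain glucosinolate synthesis when sulfur is short, and LSU1, a small protein of the sulfur-deficiency response, passed no main test of Pi supply, line, light or organ. Their largest differences were between slides. In shoots of the hy5-215 set SDI1 read 1.68, -3.18 and -4.26 in Pi-sufficient WT, 0.61, -3.87 and -3.89 in Pi-deficient WT, -0.20, -3.31 and -4.51 with sufficient Pi in hy5-215 and 0.78, -4.33 and -4.61 under deficiency in hy5-215. Replicate 1 was the highest in all 4 groups. The mean over the 4 arrays of a slide was 0.72, -3.67 and -4.32 for replicates 1, 2 and 3, a range of 5.04, and 2 of 21328 tested genes had a larger range, where the median gene had 0.39.

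LSU1 followed the same slides, with means of 1.85, -2.06 and -2.64 (range 4.49, exceeded by 6 of 21328 genes). APR3 did so with 2.21, -0.06 and -0.47 (range 2.68, exceeded by 83 genes) and APR1 with 3.34, 1.22 and 0.93 (range 2.41, exceeded by 148 genes). For APR2 the means were 1.78, 0.68 and 0.22 (range 1.55, exceeded by 806 genes), whereas SULTR2;1 differed by 0.08 and SULTR3;4 by 0.40 between the slides. What differed between the slides (plants, extraction or hybridisation) cannot be told apart.

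In roots of the hy5-215 set the slide means were 1.39, -1 and -0.17 for LSU1 (range 2.39, exceeded by 86 of 21846 genes, median gene 0.21) and -1.12, -2.75 and -1.68 for SDI1 (range 1.63, exceeded by 326 genes). Replicate 1 was again the highest. In shoots of the 35S:BBX32-SRDX set the ranges were 2.10 for SDI1, 1.54 for APR1, 1.31 for LSU1 and 1.09 for APR3, against a median of 0.31 over 21420 genes, of which 143, 465, 803 and 1340 had a larger range.

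**Figure D5:**
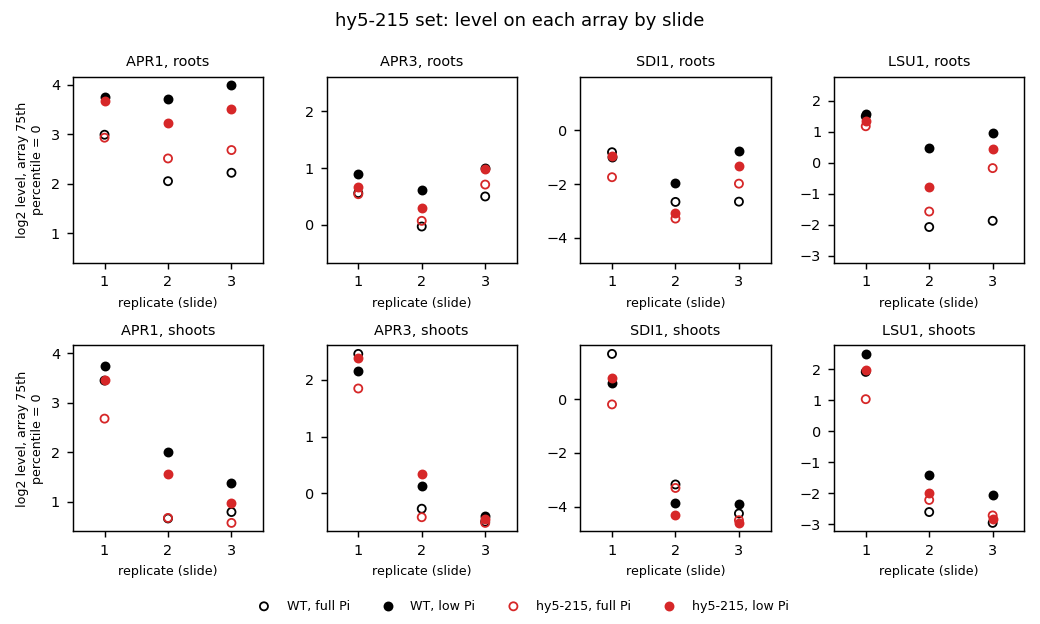
The level of APR1, APR3, SDI1 and LSU1 (log2 signal, with the array's 75th percentile at 0) on each array of the hy5-215 set is plotted by replicate, with the 4 arrays of a slide at the same position and roots and shoots in separate panels. In shoots all 4 arrays of replicate 1 lie above those of replicates 2 and 3, with slide means of 0.72, -3.67 and -4.32 for SDI1.

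LSU1 was higher under Pi deficiency on every slide in 3 of the 4 white-light WT comparisons. In WT roots of the hy5-215 set it went from 1.49, -2.08 and -1.88 to 1.57, 0.47 and 0.94 (1.82, adjusted p = 0.218, and 0.0219 in the fit blocked by slide). In WT shoots it went from 1.91, -2.61 and -2.96 to 2.49, -1.40 and -2.05 in the hy5-215 set (0.90, adjusted p = 0.772, 0.0145 with the block, but 0.119 without the replicate 1 slide) and from -1.64, -1.08 and -2.56 to 1.29, -0.07 and -0.65 in the 35S:BBX32-SRDX set (1.95, adjusted p = 0.0639, and 0.0174 with the block). On 2 of 3 slides it was higher in WT roots of that set (limma, adjusted p = 0.0703 with the block), and in B light roots on 1 of 2. It was higher on both slides in R light roots (by 0.83 to 1.25), B light shoots (0.52 to 0.91) and R light shoots (1.24 to 1.51). In the lines it was higher on all 3 slides in roots of hy5-215 and of 35S:BBX32-SRDX, and on 2 of 3 in shoots of each. SDI1 was lower in Pi-deficient 35S:BBX32-SRDX roots (-2.20, -2.51 and -3.09) than in Pi-deficient WT roots (-1.22, -1.27 and -1.87), and all transgenic arrays lay below all WT arrays (-1.14, adjusted p = 0.184, and 0.00326 with the block). LSU1 lies beside its homologue LSU3 in the genome, and probe sequences were not used here, so that shared signal was not tested.

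The replicate 1 slide also touched the comparison of organs. In WT of the hy5-215 set 2 of the 10 genes differed between roots and shoots under Pi deficiency and 5 of 10 with sufficient Pi (71.9% and 69.3% of all genes). Without that slide 7 of 10 and 8 of 10 did (72.5% and 69.4% of all genes). Among them were APR1 (2.13 and 1.70, adjusted p = 4.74e-06 and 4.83e-05), SDI1 (2.64 and 1.68, adjusted p = 0.00421 and 0.0495) and APR3 (0.97 and 0.73, adjusted p = 0.00607 and 0.0308), all higher in roots by limma. With all arrays these 3 genes differed by between -0.22 and 1.45 and none passed. The slide was left out after its high shoot levels of these genes had been seen, and the replicate 1 roots were kept. Lower shoot levels in that fit thus follow from the choice, and it does not test the organ difference of these genes. In the 35S:BBX32-SRDX set 5 of 10 differed at each Pi supply, where 74.2% (Pi-deficient) and 70.1% (Pi-sufficient) of all genes did. SULTR1;3 was higher in roots than in shoots of WT with sufficient Pi in the hy5-215 set (1.39, adjusted p = 0.0148), where it was near background in shoots, and the call was lost without replicate 3 of either organ (adjusted p = 0.122 and 0.127) and with the slide as a random block (adjusted p = 0.0641).

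The genes that passed between the lines and WT were a small share in each comparison, near the share over all genes. In hy5-215 roots 2 of 10 genes were higher with sufficient Pi (SULTR1;2 and SULTR3;4, where 14.5% of all genes passed) and 1 of 10 under deficiency (SULTR1;1, where 18.7% passed). In 35S:BBX32-SRDX roots 2 of 10 passed under deficiency, SULTR1;1 higher and SULTR1;3 lower (10.6% of all genes), and 0 of 10 with sufficient Pi (1.05% of all genes), where limma gave 2 genes with an unadjusted p under 0.05. With that block 3 of 10 genes passed at each Pi supply in hy5-215 roots (25.8% of all genes with sufficient Pi and 32.5% under deficiency), APR2 among them with sufficient Pi, and 4 of 10 under deficiency and 2 of 10 with sufficient Pi in 35S:BBX32-SRDX roots (22.1% and 7.2%), SDI1 among them under deficiency.

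None of the 9 tested genes passed limma's test in shoots of either line. For shoots labelled hy5-215 the background was 0.186% of all genes under deficiency and 0.0559% with sufficient Pi, with 3 and 1 of the 9 genes at an unadjusted p under 0.05. For 35S:BBX32-SRDX shoots it was 0.177% and 0.028%, with 2 and 1 genes. With the block, SULTR3;4 alone passed, in Pi-deficient shoots labelled hy5-215 (2.79% of all genes).

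Within the lines, Pi deficiency raised 2 of 10 genes in hy5-215 roots (13.1% of all genes passed, 6.27% higher), 1 of 10 in 35S:BBX32-SRDX roots (6.57%, 2.85% higher), 3 of 9 in shoots labelled hy5-215 (2.26%, 1.85% higher) and 2 of 9 in 35S:BBX32-SRDX shoots (3.52%, 3.2% higher). In the main fit no member passed any of the 6 interaction contrasts, which compare Pi responses between a line and its WT or between R and B light. In roots, 0.55% of all genes passed limma's interaction test for hy5-215, 0.0711% for 35S:BBX32-SRDX and 1.23% between R and B light, and in shoots 0%, 0% and 1.49%. Between 0 and 2 members per contrast had an unadjusted p under 0.05, and with the block 2 responses passed (2.94% of all genes in that contrast), those of SULTR1;1 (0.60, adjusted p = 0.0137) and SULTR3;4 (-1.36, adjusted p = 0.0183) in hy5-215 roots.

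Under single-colour light, Pi deficiency changed 4 of 10 genes in B roots (3 higher and SULTR1;1 lower, where 8.08% of all genes passed, 3.87% higher) and 1 of 10 in R roots (3.09%, 2.36% higher). In shoots 4 of 9 rose under B light and 4 of 9 under R light, namely SULTR1;3, SULTR3;4, APR1 and APR3 in both, where 37% of all genes passed under B (17.8% higher) and 5.68% under R light (4.53% higher). With the authors' normalised values the share of higher genes among those called in B shoots went from 57.4% to 84.7% and the median of all genes from -0.05 to 0.32, and the 4 called members kept their directions. Between R and B light, 1 of 10 genes passed in Pi-deficient roots (6.71% of all genes), 0 of 10 in Pi-sufficient roots (0.296%) and 0 of 9 in shoots (16.8% under deficiency and 0.245% with sufficient Pi) by limma, with 0, 3 and 0 genes at an unadjusted p under 0.05 in the last 3 comparisons.

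A list of 35 further genes of sulfate transport, activation, cysteine and glutathione synthesis and the sulfur-deficiency response was read beside the 10. Under Pi deficiency 19 of 35 passed in WT roots of the hy5-215 set (14 higher and 5 lower) and 7 of 35 in WT roots of the 35S:BBX32-SRDX set (3 higher and 4 lower). In WT shoots 6 of 35 (4 higher and 2 lower) and 8 of 35 (5 higher and 3 lower) passed, and in B light shoots 17 of the 33 tested (15 higher and 2 lower), against 3 of 33 in R light shoots. The shares of all genes passing are those given above for the same comparisons.

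LSU4, a member of the LSU family, rose in WT shoots by 5.27 and 3.90 log2 units in the hy5-215 and 35S:BBX32-SRDX sets (adjusted p = 0.00115 and 5.27e-05) and in WT roots of the hy5-215 set by 1.79 (adjusted p = 0.00227). The serine acetyltransferase genes SERAT2;2 and SERAT2;1, whose products make the precursor of cysteine, rose in WT shoots of the hy5-215 set by 1.75 and 1.26 (adjusted p = 0.0145 and 0.00745) and of the 35S:BBX32-SRDX set by 1.70 and 1.44 (adjusted p = 0.000247 and 0.0123). BGLU30, a beta-glucosidase gene, rose by 6.46 in WT shoots of the 35S:BBX32-SRDX set (adjusted p = 0.00196, with 2 of 3 Pi-sufficient arrays above background) and at least 29.4-fold and 5.72-fold in B and R light shoots (adjusted p = 0.00011 and 0.00073). In the opposite direction, SULTR3;5, which in Arabidopsis supports root-to-shoot sulfate transport, was lower under Pi deficiency in WT roots, with log2 fold changes of -2 and -1.40 (adjusted p = 0.0254 and 0.0118), and in B light roots, with -2.41 (adjusted p = 0.00477).

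SULTR3;2 was the gene of that list with the largest difference between hy5-215 and WT roots, at -1.64 with sufficient Pi and -2.51 under deficiency (adjusted p = 0.000631 and 4.77e-05). Under deficiency 8 of 35 list genes passed in those roots (4 higher and 4 lower, where 18.7% of all genes passed), and with sufficient Pi 5 of 35 (2 higher and 3 lower, where 14.5% passed). In Pi-deficient 35S:BBX32-SRDX roots 4 of 35 passed, where 10.6% of all genes did, among them LSU4, which was lower (-1.22, adjusted p = 0.0116), and the serine acetyltransferase gene SERAT3;2, which was higher (1.40, adjusted p = 0.0377).

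The pattern over the 12 group means of an organ, each set centred on its own mean, was compared with that of all genes tested in the 3 sets, as a description over groups that share plants, slides and Pi supply. SULTR1;3 in roots was closest to AT1G08165, AT1G03020 and AT5G20790 (Pearson r = 0.986, 0.985 and 0.984 among 18514 genes), and SULTR3;4 to AT5G44990 (0.966) and ABCC10 (0.951). SULTR1;1 was closest to ATGRIP (0.985), SULTR1;2 to AT1G28060 (0.937), APR1 to DJ1F (0.985) and RSW10 (0.981), LSU1 to EXO70E1 (0.971) and SDI1 to LAZ1 (0.954). In shoots SULTR2;1 was closest to AT5G59000 (0.966), APR2 to AT1G70000 (0.987) and UGT78D2 (0.976), and APR3 to AT5G57910 (0.975) among 17069 genes. Within the 10 genes the most alike pairs were SULTR2;1 and APR1 (0.97), SULTR1;3 and APR1 (0.94) in roots and APR1 and APR3 (0.95) and SULTR1;3 and SULTR3;4 (0.94) in shoots.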

How the data were processed

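RNA of roots and shoots was hybridised by the authors to 1-colour Agilent Arabidopsis arrays, 1 sample per array, from 3 biological replicates (2 in the light-quality set). The deposited scanner files hold processed spot signal intensity, background-subtracted by Agilent Feature Extraction (version 9.1.3.1 per the labels, 9.1.3.1 and 11.5.1.1 per the file headers), and the authors also deposited a table of normalised values, which are on the natural log scale. Intensity was converted to log2 and scaled to each array's 75th percentile, outlier-flagged spots were left out, and probes were matched to genes through transcript accessions (36309 of 43603 probes, 26795 genes). A gene was its brightest probe, and entered the test if every array of 1 or more groups in the fit had it above background by the scanner's call. Group means were fitted with limma 3.58.1 in R 4.3.3, in 1 fit per set and organ (12 arrays, or 8 in the light-quality set) and 1 fit per white-light set for organs, with Benjamini-Hochberg adjustment over all tested genes. The number of arrays limits the precision.

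Each slide carried the 4 groups of 1 replicate, organ and set, and each group kept its position on the slide, so that position and group cannot be told apart. The deviations of arrays on 1 slide from their group means correlated at 0.15 or more in every pair of the white-light fits (mean r between 0.42 and 0.53). For arrays on other slides the mean was between -0.26 and -0.21. Deviations from a group mean cancel within the group, so this negative value follows from the first and is not a separate comparison. Replicate numbers therefore paired the arrays, and where the fit with the slide as a block changed a call this is given by gene or within a count. In the fits of both organs the block was the replicate number, which joined a root slide and a shoot slide. On simulated data for the WT Pi contrasts, of 100 genes changed by 1 log2 unit the fit recovered 77 and 58 (hy5-215 set, roots and shoots) and 58 and 53 (35S:BBX32-SRDX set). In the B light contrasts it recovered 29 and 32 of 100 (roots and shoots). The simulated noise was independent between arrays, with no slide effect, and far fewer genes were changed than passed in the data. These values are therefore not recovery rates for the real arrays. The named genes were the 10 members and, of the pathway list, at most 4 per contrast, those with the largest change among genes past an adjusted p of 0.05 and a fold of 2 whose groups did not overlap, together with HY5, BBX32 and IPS1, and for each member the 3 genes closest in pattern. The members and lists were chosen with earlier results of these data known. Alternatives covered normalisation, background correction, the filter, the probe rule, the model and the arrays used.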

Additional observations from a re-analysis of the deposited data

Results flagged for a closer look

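Groups held 2 or 3 arrays, too few for a test of outlying samples. The Pi response of APR2 in light-set roots was 0.40 under B and -0.54 under R light, with both slides on 1 side in each case, and the difference between the responses was -0.93 (limma, adjusted p = 0.269). SULTR1;1 responded by -0.29 in WT and 0.31 in hy5-215 roots, with all 3 slides on 1 side in each case, and the difference of 0.60 passed with the slide as a block (adjusted p = 0.0137) and not without it (adjusted p = 0.515). For SULTR3;4 in hy5-215 roots the response was smaller than in WT by a difference of -1.36 with the block (adjusted p = 0.0183), and without it the adjusted p was 0.13. SULTR1;2 responded by -0.30 in WT and 0.09 in 35S:BBX32-SRDX roots, again with 3 slides on 1 side in each, and the difference of 0.40 did not pass (adjusted p = 1.0). BGLU30, of the pathway list, rose less under R than under B light in shoots (-2.38, adjusted p = 0.0436, and 0.0602 with the block), a fitted value that rests on Pi-sufficient arrays not well above background.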

How the results depend on the processing

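Counts are of members passing over both contrasts of a comparison. With the slide as a replicate block the counts rose from 3 to 6 in hy5-215 roots, from 8 to 13 for Pi deficiency in WT roots, from 5 to 13 in WT shoots and from 3 to 8 in roots of the lines. They rose from 2 to 6 in 35S:BBX32-SRDX roots, from 0 to 1 in shoots labelled hy5-215, from 1 to 2 between R and B roots and from 0 to 2 for the interactions. The rise was less than 1.5 times in shoots of the lines (5 to 7) and light-set roots (5 to 6). Between organs, where the block was the replicate number and joined a root and a shoot slide, counts went from 17 to 21. No member call was lost. The share of all genes passing rose as well. For Pi deficiency it went from 13.1% to 26.1% in hy5-215 roots, 6.57% to 17.9% in 35S:BBX32-SRDX roots, 2.26% to 24.7% in shoots labelled hy5-215 and 3.52% to 14.5% in 35S:BBX32-SRDX shoots. Between R and B light in Pi-deficient roots it went from 6.71% to 10.4%. Normexp background correction gave 2 in shoots labelled hy5-215, 1 (from 5) for Pi deficiency in light-set roots and 2 between R and B shoots (from 0). Without the filter on dim probes the counts were 1 in 35S:BBX32-SRDX roots, 0 between R and B roots and 2 in light-set roots. The unmoderated contrast gave 0 in 35S:BBX32-SRDX roots, 0 between R and B roots, 0 in light-set roots and 3 (from 8) in light-set shoots. Between R and B roots quantile normalisation gave 2 and both the authors' values and the mean of a gene's probes gave 0, and the authors' values gave 3 in light-set roots. Leaving out 1 array in each of 88 refits moved 35S:BBX32-SRDX roots between 0 and 2, R against B roots and shoots each between 0 and 1, light-set roots between 2 and 4 and light-set shoots between 5 and 8. Of the members' results in these refits 951 kept direction and call, 83 lost a call, 16 gained one and 2 turned sign, neither of which was called: LSU1 in WT shoots of the hy5-215 set (between -0.51 and 2.46) and APR1 in shoots labelled hy5-215 (between -0.041 and 1.38). The cause was not tested. Leaving out the replicate 1 shoot slide, an alternative chosen after seeing the data, turned the sign of 5 of 65 results, none called with all arrays and 2 called without it: APR3 (-0.22 to 0.73) and SDI1 (-0.12 to 1.68) between organs with sufficient Pi. The other 3 were SDI1 in the hy5-215 shoot interaction (0.42 to -0.40) and, with sufficient Pi, LSU1 (-0.08 to 0.32) and SULTR1;2 (0.12 to -0.002) between shoots labelled hy5-215 and WT. Over all genes normexp lowered the count past an adjusted p of 0.05 and a fold of 2 from 1666 to 914 for WT shoots of the 35S:BBX32-SRDX set and from 3474 to 1372 for B shoots, and the authors' values from 1148 to 319 for B roots. Light-quality arrays were dim (75th percentile signal between 79 and 267, against 2428 to 7700), which limits low levels there. The normexp setting added an offset of 50 to every signal, and this shrinks fold changes most where signals are dim.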
